A study of Mus musculus with 29 samples.

Results

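Succinate dehydrogenase was described through 6 genes of the 31002 in the expression table. Sdha, Sdhb, Sdhc and Sdhd encode its 4 subunits, and Sdhaf1 and Sdhaf2 encode proteins that help to assemble it. The genes were listed by symbol, and the set was chosen by the measured level of Sdhd, which was lower in 22-month-old hAβ-KI mice only. The values of Sdhd in every comparison, and those of all genes in the genotype comparison at 22 months and in the interaction that holds it, are therefore a description. Where calls are counted in them, nothing is read from the count. Levels are in TPM, a share of all transcripts in a library that is corrected for transcript length. All 6 genes passed the filter on low values (2 or more mice with 1 TPM or above), and the lowest value of any of them in any mouse was 10.57 TPM.

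The hippocampal transcriptome was profiled by bulk RNA-seq in a design that crosses genotype with age. WT mice, given as C57BL/6N in the labels, were 2 months old (n = 7, with 4 males and 3 females) or 22 months old (n = 8, with 6 males and 2 females). Homozygous hAβ-KI mice, given as C57BL/6NJ, were 2 months old (n = 8, with 5 males and 3 females) or 22 months old (n = 6, with 3 males and 3 females). In the hAβ-KI line the amyloid-β sequence of the mouse App gene is replaced by the human one, in an exon flanked by loxP sites, with no mutation of familial Alzheimer's disease. App is expressed from its own locus in both genotypes, so no transgene promoter limits the cells that carry the change. Genotype and substrain, as well as group and the numbering of the libraries, cannot be told apart.

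The libraries had summed levels of 717535 to 816940 TPM over the table, and 8.54 to 10.9% of that sum came from genes of the mitochondrial genome. All 4 hippocampal neuron markers examined were above a mean of 1 TPM, with summed levels of 184.9 to 363.2 TPM per mouse, whereas 6 choroid plexus markers summed to 36.95 to 17930 TPM, with a wide range in each of the 4 groups. Replicate 2 of the 22-month-old hAβ-KI mice stood apart, with the lowest summed hippocampal neuron markers (184.9 TPM, group median 276.0 TPM) and the lowest summed oligodendrocyte markers (2215 TPM, group median 4375 TPM). The differences that rest on that group are given again without it where they are called or change.

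Succinate dehydrogenase, or complex II, oxidizes succinate to fumarate in the tricarboxylic acid (TCA) cycle and passes the electrons to ubiquinone in the inner mitochondrial membrane. SDHA holds the flavin at which succinate is oxidized, and SDHB holds the iron-sulfur clusters that carry the electrons onward. SDHC and SDHD anchor the complex in the membrane and form the site where ubiquinone is reduced. Complex II pumps no protons, and all of its subunits are encoded in the nucleus, in the mouse on 4 different chromosomes. SDHAF2 is needed for the attachment of the flavin to SDHA, and SDHAF1 for the insertion of the iron-sulfur clusters into SDHB.

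In GENCODE M21 on GRCm38, Sdhd lies on the minus strand of chromosome 9 (50596357 to 50603812), Sdhb on the plus strand of chromosome 4 (140961203 to 140979193), Sdha on the minus strand of chromosome 13 (74322254 to 74350280) and Sdhc on the minus strand of chromosome 1 (171127165 to 171150603). Sdhaf1 lies on the minus strand of chromosome 7 (30321406 to 30323895) and Sdhaf2 on the minus strand of chromosome 19 (10500534 to 10526142). Sdhd and Sdha each face a gene on the opposite strand, Timm8b and Ccdc127, whose start lies close to their own. The stretches before the outermost annotated starts are shown for Sdhd, the subunit that chose the set, for Sdhb and for Sdha. Sdhb was the other subunit called lower with age in hAβ-KI mice, a call lost in some alternatives. Sdha is a subunit whose start is also shared with a divergent gene. The stretches are RefSeq sequence of GRCm38.p6, read 5′ to 3′ on the strand of the named gene. Capitals mark matches to the motifs described after them.
Sdhd, chr9:50603850-50603900, minus strand, all 51 bases between the starts of Sdhd and Timm8b: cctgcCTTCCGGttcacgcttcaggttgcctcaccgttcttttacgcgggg
Sdha, chr13:74350281-74350308, minus strand, all 28 bases between the starts of Sdha and Ccdc127: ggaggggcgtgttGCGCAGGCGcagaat
Sdhb, chr4:140961021-140961202, plus strand, 182 bases before the start: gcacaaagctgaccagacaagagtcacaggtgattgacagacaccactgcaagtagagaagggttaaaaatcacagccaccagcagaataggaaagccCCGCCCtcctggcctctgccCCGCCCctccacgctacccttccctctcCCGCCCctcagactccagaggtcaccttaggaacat

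A search of both strands covered 4 short motifs in RefSeq windows of 300 bases (250 before and 50 from the start on), which 5 of the 6 genes had. The letters GCGCANGCG, known from NRF1 sites, occurred in the windows of Sdhd and Sdha and in 6.25% of 32851 windows of all genes. The letters CCGGAAG, the core of ETS factor sites, occurred in the windows of Sdhd, Sdhb, Sdhaf1 and Sdhaf2 and in 8.86% of all windows. The GC box GGGCGG occurred in the windows of the same 4 genes and in 35.7% of all windows. The letters AAGGTCA, known from estrogen-related receptor sites, occurred in the window of Sdhd alone among the 5 and in 4.72% of all windows. In the printed stretches the capitals are thus 1 ETS core between Sdhd and Timm8b, 1 NRF1 motif between Sdha and Ccdc127 and 3 GC boxes before Sdhb, and no match overlaps another.

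Ordered by level, the subunits stood above the assembly factors in each of the 29 mice, and so did each neighbour in the order. Sdhb was highest with a mean of 350.7 TPM over all mice, followed by Sdha (293.3 TPM), Sdhc (201.9 TPM), Sdhd (145.3 TPM), Sdhaf2 (24.5 TPM) and Sdhaf1 (11.9 TPM). The ranges of Sdhb (308.75 to 395.08 TPM) and Sdha (262.91 to 340.59 TPM) overlapped between mice, although Sdhb was above Sdha within each of the 29. Sdhc (174.66 to 232.93 TPM) and Sdhd (91.75 to 170.99 TPM) did not overlap, so that the less abundant of the 2 membrane anchors was below the other in any pair of mice. Among genes of the nuclear genome the subunits ranked 339th, 406th, 603rd and 825th by mean level. Of the 6 genes, Sdhd also varied most across mice, with a coefficient of variation of 12.3% against 5.34 to 6.80% for the other subunits. That figure holds the low values in old hAβ-KI mice that chose the set, so nothing is read from it. Within each of the other groups the coefficient for Sdhd was 5.3 to 6.7%.

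Sdhd was at nearly the same level in 3 of the groups and lower in the fourth. In WT mice its lowest, median and highest values were 141.0, 151.4 and 163.9 TPM at 2 months and 142.3, 151.2 and 171.0 TPM at 22 months. In hAβ-KI mice they were 137.6, 152.9 and 169.2 TPM at 2 months and 91.75, 122.1 and 131.4 TPM at 22 months. Each of the 6 old hAβ-KI mice was below every mouse of the other 3 groups, which is the pattern that chose the set. Mean levels were 154.1 ± 8.18 TPM (SD, n = 7) and 152.5 ± 9.44 TPM (SD, n = 8) in young and old WT mice, against 151.6 ± 10.2 TPM (SD, n = 8) and 117.1 ± 15.3 TPM (SD, n = 6) in young and old hAβ-KI mice.

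**Figure D1:**
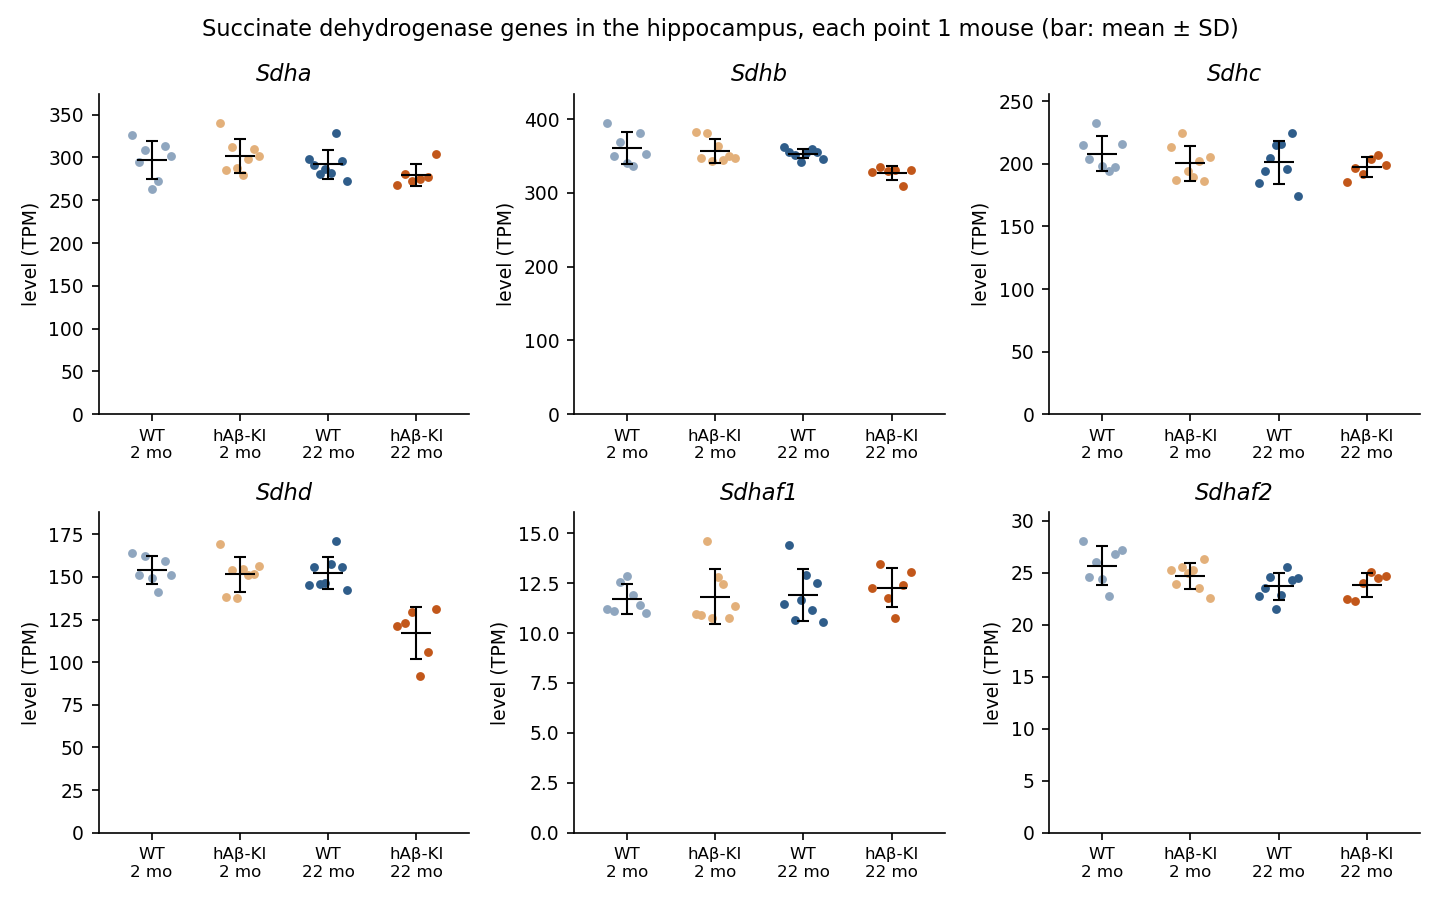
Levels of the 6 succinate dehydrogenase genes in TPM (y axis, from 0) in the 4 groups (x axis), with 1 point per mouse and bars for the mean ± SD. The 6 old hAβ-KI mice lie between 91.75 and 131.4 TPM for Sdhd and between 308.75 and 335.3 TPM for Sdhb, below every mouse of the other groups for both genes, while the other 4 genes overlap between groups.

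On the log2(TPM + 1) scale, Sdhd differed between hAβ-KI and WT mice by -0.02 (SE 0.06) at 2 months and by -0.39 (SE 0.06) at 22 months, the latter a level of 0.765 times that of WT. From 2 to 22 months it differed by -0.02 (SE 0.06) in WT mice and by -0.38 (SE 0.06) in hAβ-KI mice. The genotype difference at 22 months and the age difference in hAβ-KI mice share the 6 old hAβ-KI mice and are not separate evidence. The difference between the genotypes in their change with age was -0.36 (SE 0.09).

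The old hAβ-KI mice were also the most spread, with a coefficient of variation of 13.05% for Sdhd against 5.30 to 6.71% in the other groups. The 2 lowest mice, replicate 4 (91.75 TPM) and replicate 5 (106.12 TPM), are both females and share 1 number in their sample names, of which the meaning is not given in the sources used here. The third female, replicate 6, had the highest level of the group (131.42 TPM), and the 3 males lay between 121.39 and 129.3 TPM. Without both of the lowest mice the genotype difference at 22 months was -0.27 (SE 0.05), and without replicate 2, whose own level was 122.82 TPM, it was -0.40 (SE 0.07). With each mouse left out in turn it lay between -0.42 and -0.32.

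Sdhd was also low relative to the other subunits of the same library, a ratio that no scaling of the library alters. The log2 ratio of Sdhd to the geometric mean of Sdha, Sdhb and Sdhc was -0.87 ± 0.04 (SD, n = 7) in young WT, -0.85 ± 0.06 (SD, n = 8) in old WT, -0.88 ± 0.07 (SD, n = 8) in young hAβ-KI and -1.17 ± 0.20 (SD, n = 6) in old hAβ-KI mice. In old hAβ-KI mice it ran from -1.53 to -0.997, below the lowest value in any other group (-0.96). Expressed as a share of the summed TPM of the 4 subunits, Sdhd made up 15.1%, 15.3%, 14.99% and 12.7% in the same order of groups, and 10.2% in the lowest mouse, replicate 4. The difference in the log2 ratio between hAβ-KI and WT mice was -0.01 at 2 months and -0.32 at 22 months, and -0.36 at 22 months when Sdhc, the other membrane anchor, was the only reference.

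**Figure D2:**
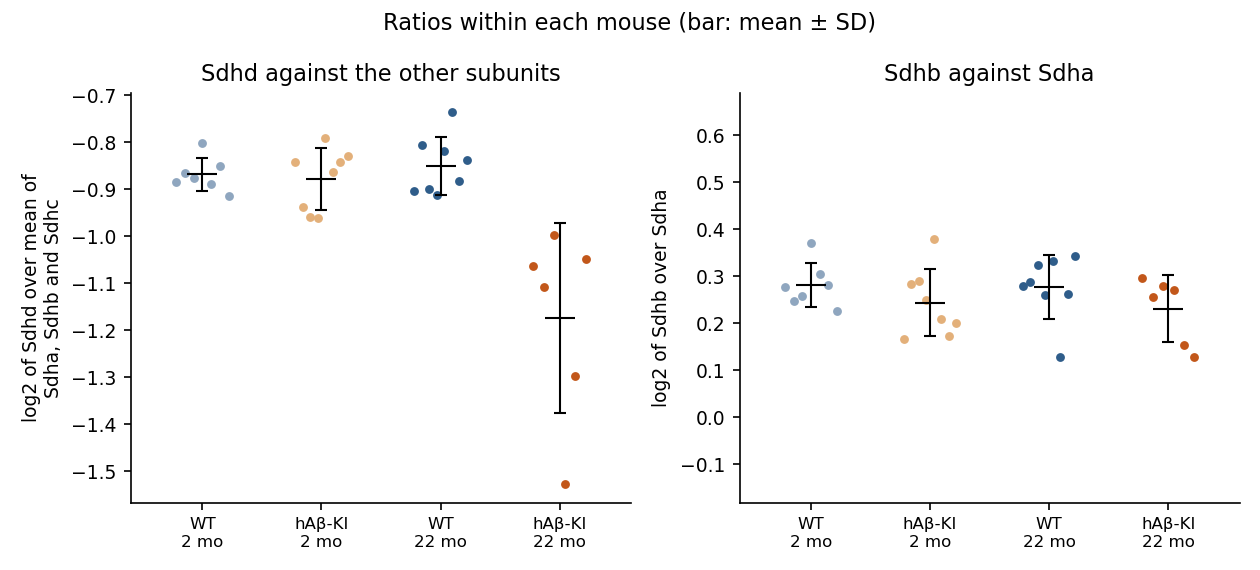
Log2 ratios of levels within each mouse (y axes, drawn to the same scale) in the 4 groups (x axis), with 1 point per mouse and bars for the mean ± SD. On the left, Sdhd over the geometric mean of the other 3 subunits is lower in all 6 old hAβ-KI mice than in any other mouse; on the right, Sdhb over Sdha overlaps between all groups.

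Sdhb, the iron-sulfur subunit, was likewise lowest in the old hAβ-KI mice, by a smaller margin. Its lowest, median and highest values were 336.0, 353.0 and 395.1 TPM in young WT, 342.4, 354.5 and 362.7 TPM in old WT, 342.7, 348.5 and 382.4 TPM in young hAβ-KI and 308.8, 330.5 and 335.3 TPM in old hAβ-KI mice. As for Sdhd, every old hAβ-KI mouse was below every mouse of the other groups, although the gap to the lowest young WT mouse (336.01 TPM) was under 1 TPM. Such a separation was found for 7 of the 15554 genes tested (0.045%), Sdhb and Sdhd among them, and since it is the pattern that chose the set through Sdhd, nothing is read from it.

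With age, Sdhb fell in hAβ-KI mice by 0.12 on the log2 scale (SE 0.03; adjusted p = 0.0346 in limma with Benjamini-Hochberg adjustment over all genes), with means of 357.1 ± 16.4 TPM at 2 months (SD, n = 8) and 327.5 ± 9.48 TPM at 22 months (SD, n = 6). The call remained with each mouse left out in turn (adjusted p = 0.0310 to 0.0973; 0.0331 without replicate 2 of the old hAβ-KI mice). It was lost after quantile normalization, where the difference was -0.071 (adjusted p = 0.107), and without the 2 old hAβ-KI mice with the lowest Sdhd, where it was -0.11 (adjusted p = 0.164). In WT mice the age difference of Sdhb was -0.027 (SE 0.033; adjusted p = 0.740 in limma), and its sign turned to +0.029 after quantile normalization. The difference between those 2 age changes was -0.096 (SE 0.048), and the genotype difference was -0.013 (SE 0.033) at 2 months and -0.11 (SE 0.03) at 22 months.

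Sdha, the flavoprotein, had overlapping values in the 4 groups. Its medians were 301.7 TPM in young WT, 288.7 TPM in old WT, 299.6 TPM in young hAβ-KI and 275.9 TPM in old hAβ-KI mice, and 4 of the 6 old hAβ-KI mice were below the lowest young hAβ-KI mouse. The age difference was -0.11 (SE 0.05; adjusted p = 0.187 in limma) in hAβ-KI mice and -0.024 (SE 0.046; adjusted p = 0.850 in limma) in WT mice, and neither passed the threshold. The WT value turned to +0.028 after quantile normalization. Genotype differences were 0.024 (SE 0.046) at 2 months and -0.062 (SE 0.048) at 22 months.

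Sdhc, the anchor that pairs with SDHD, was close to level across the groups, with means of 208.2 ± 13.8 TPM (SD, n = 7) in young WT, 201.3 ± 17.2 TPM (SD, n = 8) in old WT, 200.5 ± 13.9 TPM (SD, n = 8) in young hAβ-KI and 197.2 ± 7.92 TPM (SD, n = 6) in old hAβ-KI mice. None of its differences passed the threshold in limma, and that with age in hAβ-KI mice was -0.022 (95% interval -0.13 to 0.09; adjusted p = 0.872), with a positive sign (0.024) after quantile normalization. Its genotype differences were -0.05 (SE 0.05) at 2 months and -0.026 (SE 0.053) at 22 months.

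Of the assembly factors, Sdhaf2 had means of 25.7 ± 1.84 TPM (SD, n = 7) in young WT, 23.7 ± 1.30 TPM (SD, n = 8) in old WT, 24.7 ± 1.24 TPM (SD, n = 8) in young hAβ-KI and 23.8 ± 1.18 TPM (SD, n = 6) in old hAβ-KI mice. The age difference in WT mice was -0.11 on the log2 scale (SE 0.05) and did not pass the threshold (adjusted p = 0.229 in limma). The corresponding value for hAβ-KI mice was -0.048 (SE 0.049; adjusted p = 0.638 in limma). Sdhaf1 had means of 11.7 to 12.3 TPM in the 4 groups, and its differences with age were 0.018 (SE 0.068) in WT and 0.054 (SE 0.071) in hAβ-KI mice, with adjusted p of 0.931 and 0.728 in limma. Without replicate 2 of the old hAβ-KI mice, the age differences in hAβ-KI mice were -0.11 for Sdha, -0.021 for Sdhc, -0.030 for Sdhaf2 and 0.029 for Sdhaf1, and none was called in limma (adjusted p = 0.209 to 0.881). For Sdhaf1, 69.1% of stretches of 43 bases are also held by the overlapping gene E130208F15Rik on the opposite strand, and the library kit keeps no strand, so reads of the 2 genes cannot be told apart. The same share was 3.01% for Sdhaf2, 0.519% for Sdhc and 0 for Sdha, Sdhb and Sdhd.

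A gene was called where the limma p was under 0.05 and the Benjamini-Hochberg false discovery rate under 0.1. For genotype at 2 months 0 of the 6 genes were called, beside 0.0386% of all 15554 genes tested. Before adjustment 0 of the 6 had a p under 0.05 in limma, beside 1041 of the 15554. For age in WT mice 0 of 6 were called, beside 5% of all genes, and 1 (Sdhaf2) had a p under 0.05 in limma, beside 2527 of the 15554. For age in hAβ-KI mice 1 of the 5 genes other than Sdhd, Sdhb, was called as lower, beside 9.18% of all genes. Sdhd was also under both thresholds there, but its low values in the old hAβ-KI mice chose the set, and it does not count. For genotype at 2 months and for age in WT mice Sdhd is among the 6. That it was not called there belongs to the pattern that chose the set, and it does not count either. For genotype at 22 months, the comparison that chose the set, 1 of 6 (Sdhd) was called beside 0.495% of all genes. For the interaction of genotype and age 0 of 6 were called beside 0.00643% of all genes (1 gene), with 1 of the 6 (Sdhd) at a p under 0.05, and these last 2 counts are not read.

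**Figure D3:**
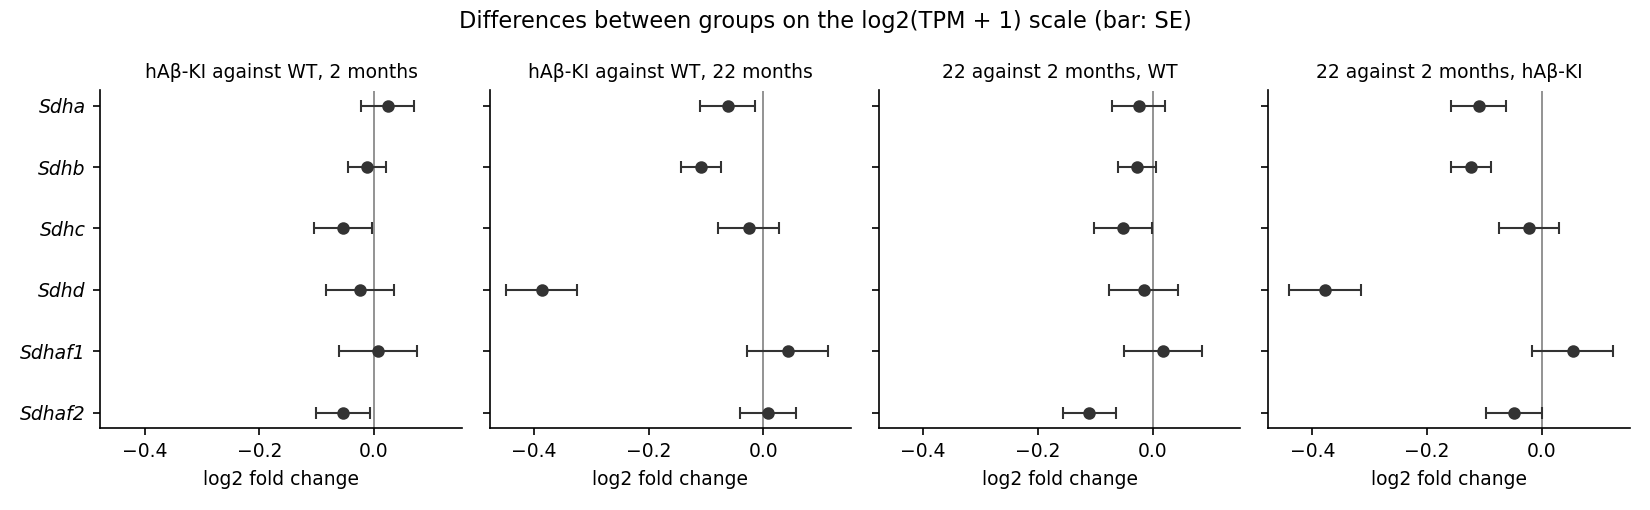
Log2 fold changes of the 6 genes on the log2(TPM + 1) scale (x axes, shared) with SE bars, in 4 comparisons between groups. Sdhd lies at -0.39 for genotype at 22 months and at -0.38 for age in hAβ-KI mice, Sdhb at -0.11 and -0.12 in the same panels, and the other 4 genes lie between -0.11 and 0.054 in all panels.

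The median difference of the 6 genes was -0.02, -0.03, -0.04 and -0.08 for genotype at 2 months, age in WT, genotype at 22 months and age in hAβ-KI mice, against medians of -0.03, -0.03, -0.01 and -0.0047 over all genes tested. The medians of the members are a description and carry no test. In bulk tissue, fewer cells of a type and less RNA per cell cannot be told apart. The neuronal marker Rbfox3 was the 1 called gene of 6 neuron markers in 2 comparisons. It was at -0.20 (SE 0.05) for genotype at 22 months and -0.19 (SE 0.05) for age in hAβ-KI mice. The other neuron markers lay between -0.099 (Map2) and 0.024 (Stmn2) in the first. In the second they lay between -0.18 (Tubb3) and 0.057 (Map2). The summed neuron markers were 2735 to 3140 TPM in old WT and 2793 to 2945 TPM in old hAβ-KI mice, ranges that overlap. The summed hippocampal neuron markers were 284.2 to 325.4 TPM in old WT and 184.9 to 282.2 TPM in old hAβ-KI mice, which do not overlap. The young hAβ-KI mice, at 273.8 to 348.2 TPM, overlapped both ranges. For genotype at 22 months 0 of the 4 were called in limma, with 2 of 4 at a p under 0.05 (0 without replicate 2). Neurod6 of the same list fell with age in hAβ-KI mice (-0.44, SE 0.15), and by 0.19 (SE 0.06) without replicate 2. Rbfox3 stayed called without that mouse, at -0.19 (SE 0.05) and -0.17 (SE 0.05). The part of these markers in the lower Sdhd and Sdhb was not tested.

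Markers of other cell types were called with age, where 5% of all genes were called in WT and 9.18% in hAβ-KI mice. Of 5 microglia markers 4 rose with age in WT and 4 in hAβ-KI mice, with summed levels of 114.2 to 145.9 TPM in young and 132.7 to 168.6 TPM in old mice. Of 5 astrocyte markers Gfap rose with age in WT (0.62, SE 0.14) and in hAβ-KI mice (0.71, SE 0.15). In WT mice alone, the neuron marker Stmn2 and the oligodendrocyte marker Mog were called lower and the endothelial marker Flt1 higher, which is not a test of the difference from hAβ-KI mice. None of the choroid plexus and blood markers was called in any comparison, and apart from Rbfox3 no marker was called for genotype. Without replicate 2 of the old hAβ-KI mice, the oligodendrocyte marker Mobp was called higher for genotype at 22 months and, with Mbp, for age in hAβ-KI mice. The neuron markers called lower with age in hAβ-KI mice then numbered 3 (Rbfox3, Stmn2 and Tubb3), so Stmn2 was called in both genotypes. The microglia markers called higher numbered 3.

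The genes of the pathway around complex II were taken from lists of its assembly factors, of the other TCA cycle enzymes, of pyruvate entry and of the cofactors that the complex needs. Besides Sdhaf1 and Sdhaf2, the assembly factors Sdhaf3 (4.44 to 4.96 TPM by group mean) and Sdhaf4 (68.0 to 71.0 TPM) were measured. SDHAF3 acts with SDHAF1 on the iron-sulfur subunit and SDHAF4 on the flavinated SDHA. Of these 4, 0 were called in any of the 5 comparisons in limma, with 1 (Sdhaf2, age in WT) at a p under 0.05.

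Of 12 genes of other TCA cycle enzymes, 3 fell with age in WT mice and none rose, beside 5% of all genes called in either direction. These were Sucla2 (-0.19, SE 0.04), a subunit of the succinyl-CoA synthetase that makes succinate, Dld (-0.19, SE 0.06), the dihydrolipoamide dehydrogenase, and Idh3a (-0.16, SE 0.04), a subunit of isocitrate dehydrogenase. In hAβ-KI mice 6 fell and 1 rose, beside 9.18% of all genes called in either direction. Ogdh (-0.18, SE 0.05) of the oxoglutarate dehydrogenase complex, Mdh2 (-0.16, SE 0.04), the mitochondrial malate dehydrogenase, and Cs (-0.16, SE 0.04), the citrate synthase, had the largest declines, and Suclg2 (0.26, SE 0.08), the GTP-forming subunit of succinyl-CoA synthetase, was the gene that rose. The other 3 that fell were Idh3a, Idh3b and Idh3g. Over the 12 genes, the median difference with age was -0.08 in WT mice, against -0.12 in the hAβ-KI line. The medians over all genes tested were -0.03 in WT and -0.0047 in hAβ-KI mice. Without replicate 2 of the old hAβ-KI mice, 4 fell (Ogdh, Mdh2, Cs and Idh3b), none rose, and Suclg2 was at 0.23 (SE 0.08; adjusted p = 0.109 in limma). Quantile normalization gave 2 lower in WT mice, and 5 lower and 1 higher in hAβ-KI mice; rescaling to nuclear protein-coding genes gave 2, 7 and 1.

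Fh1, the fumarase that takes the product of complex II, had group means of 102.5 to 110.1 TPM and was not called. For genotype, 0 of the 12 were called in limma at 2 months (1 at a p under 0.05) or at 22 months (3 at a p under 0.05), and 0 for the interaction (1 at a p under 0.05). The counts of 3 and 7 called with age are not a test of a difference between the genotypes.

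Pyruvate entry had 4 of 7 genes lower with age in WT mice and 3 of 7 in hAβ-KI mice, with none higher. Of all genes tested, 5% were called with age in WT and 9.18% in hAβ-KI mice. Dlat (-0.26, SE 0.08), Pdhx (-0.20, SE 0.04) and Pdhb (-0.14, SE 0.04), all of the pyruvate dehydrogenase complex, declined most in WT mice, followed by Pdha1. In hAβ-KI mice the genes called were Pdhx (-0.19, SE 0.05), Pdhb (-0.15, SE 0.04) and Pdha1 (-0.13, SE 0.04). After quantile normalization 2 of the 7 were called in WT mice and 2 in hAβ-KI mice, and without replicate 2 of the old hAβ-KI mice Pdhx and Pdhb were called in hAβ-KI mice.

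**Figure D4:**
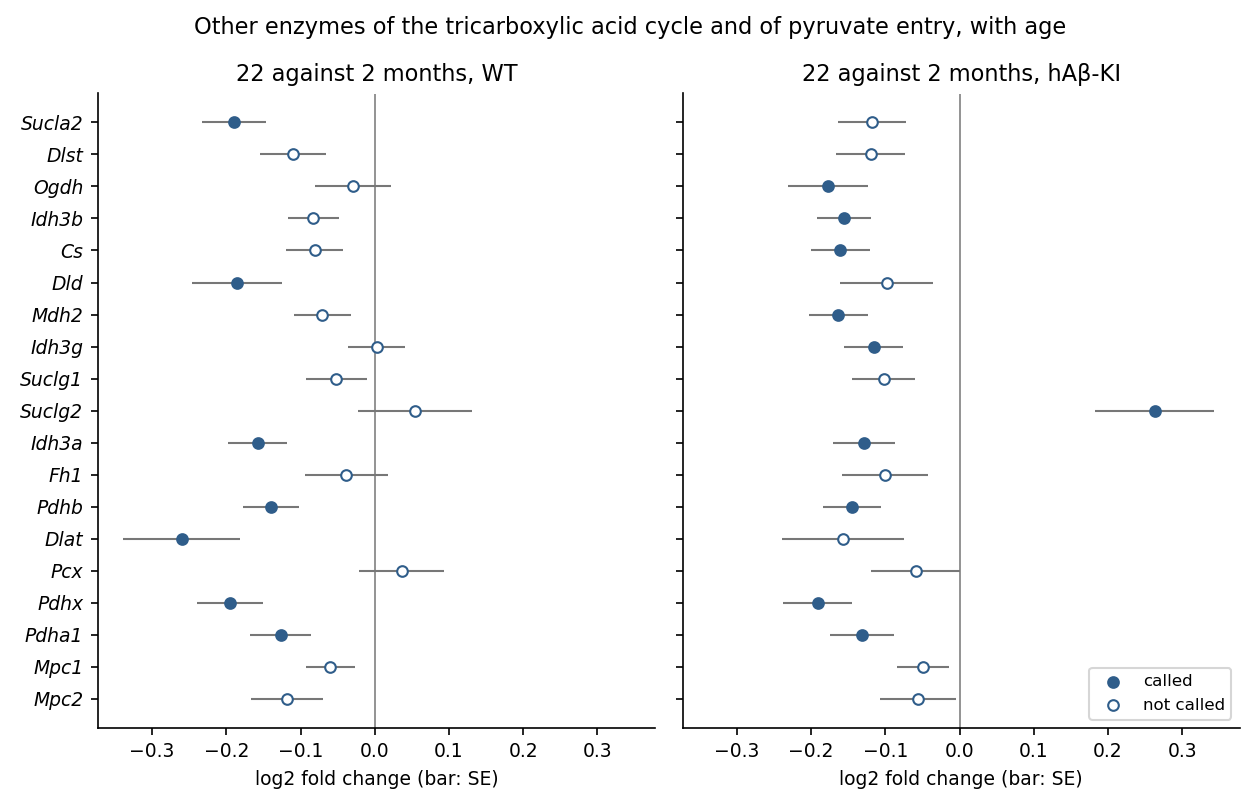
Log2 fold changes from 2 to 22 months (x axes, shared; bars are SE) of 12 TCA cycle genes and 7 genes of pyruvate entry in WT mice (left) and hAβ-KI mice (right). Filled points were called and open points were not; most lie below 0 in both genotypes, and Suclg2 in hAβ-KI mice (0.26) is the called gene above 0.

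Among genes that serve the cofactors of complex II, calls were few. With age, 9.18% of all genes tested were called in hAβ-KI mice and 5% in WT mice. Of 12 genes for the synthesis of ubiquinone, its electron acceptor, 2 fell with age in hAβ-KI mice, Adck3 (-0.26, SE 0.09) and Coq9 (-0.15, SE 0.05), and 0 were called in WT mice (1 at a p under 0.05 in limma). The counts of 2 and 0 are not a test of a difference between the genotypes. Of 8 genes of other enzymes that feed electrons to ubiquinone, Gpd2 (-0.32, SE 0.09), the mitochondrial glycerol-3-phosphate dehydrogenase, fell with age in hAβ-KI mice, with means of 24.4 ± 2.60 TPM at 2 months (SD, n = 8) and 19.3 ± 1.62 TPM at 22 months (SD, n = 6). Of 14 genes for the assembly of iron-sulfur clusters, 4 for flavin supply and 8 for the supply and sensing of succinate (7 of them tested), 0 were called in any comparison in limma, with at most 4, 1 and 1 at a p under 0.05. Without replicate 2 of the old hAβ-KI mice, neither Adck3 nor Coq9 was called, and Gpd2 still was, at -0.31 (SE 0.10). The succinate receptor Sucnr1 was the gene not tested, with group means of at most 0.04 TPM. None of the genes of these lists or of pyruvate entry was called in limma for genotype at 2 months (2 at a p under 0.05), for genotype at 22 months (5) or for the interaction (1).

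The gene nearest to Sdhd is Timm8b, which encodes a small chaperone of the mitochondrial intermembrane space and is read from the opposite strand of the 51-base stretch between their starts. The far end of Timm8b overlaps the end of AU019823 on the opposite strand, whose mean was 6.34 TPM. Its lowest, median and highest values were 385.2, 410.2 and 427.6 TPM in young WT, 372.9, 393.6 and 447.9 TPM in old WT, 360.8, 390.2 and 433.4 TPM in young hAβ-KI and 357.9, 383.3 and 414.1 TPM in old hAβ-KI mice. The 4 groups overlapped, so Timm8b did not share the separation of the old hAβ-KI mice seen for Sdhd. Its difference for genotype at 22 months was -0.05 (SE 0.04), and that with age in hAβ-KI mice was -0.03 (SE 0.04; adjusted p = 0.741 in limma). Without replicate 2 of the old hAβ-KI mice these were -0.08 (SE 0.04) and -0.05 (SE 0.04; adjusted p = 0.530 in limma). The ratio of Sdhd to Timm8b was 0.306 ± 0.047 (SD, n = 6) in old hAβ-KI mice and 0.378 to 0.387 in the other groups by mean, and the 2 ranges of old hAβ-KI (0.231 to 0.361) and old WT mice (0.345 to 0.459) overlapped.

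**Figure D5:**
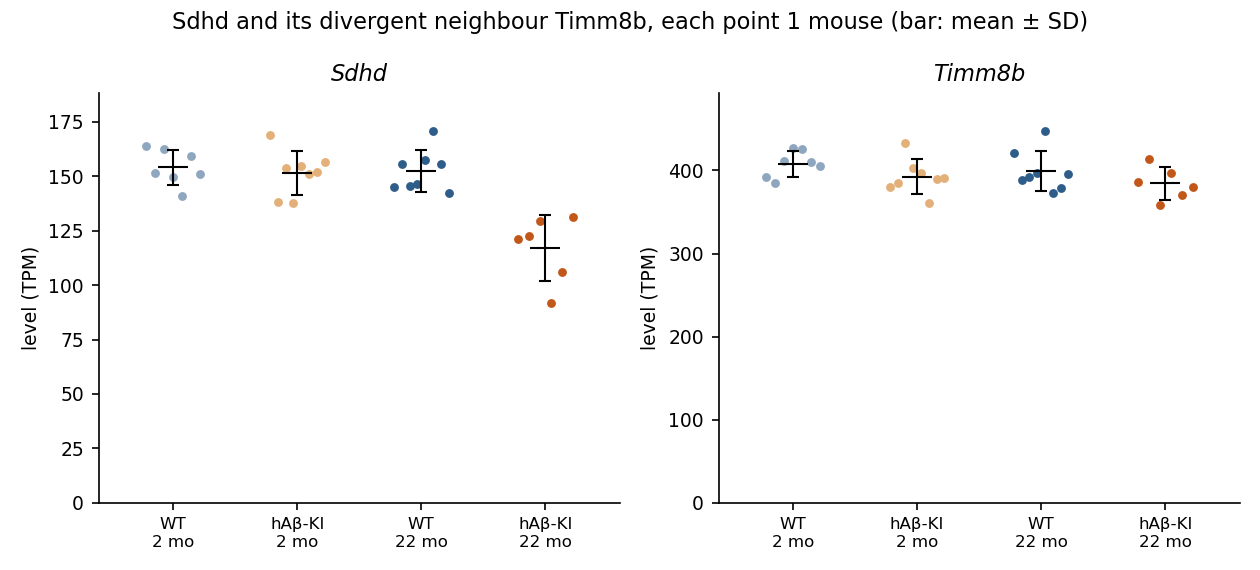
Levels in TPM (y axes, from 0) of Sdhd (left) and of its divergent neighbour Timm8b (right) in the 4 groups, with 1 point per mouse and bars for the mean ± SD. Timm8b lies between 357.9 and 447.9 TPM with overlapping groups, while all 6 old hAβ-KI mice are below the other mice for Sdhd.

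Within 100 kb of Sdhd, 11 other annotated genes of the table lie on either side, and 8 of them were tested. Pts, Bco2, Il18, Timm8b, AU019823, Pih1d2, Dlat and Dixdc1 were not called for genotype at 2 or 22 months, and their differences at 22 months ranged from -0.08 (Dixdc1) to 0.19 (Pih1d2). Plet1os, Plet1 and Tex12 were below the filter, with means under 1 TPM. Dlat, already named for pyruvate entry, lies 30821 bases from Sdhd and was called for age in WT mice, the 1 of the 8 called for genotype or age. Of all genes tested, 5% were called for age in WT and 9.18% for age in hAβ-KI mice. For genotype 0.0386% were called at 2 months and 0.495% at 22 months. Nothing is read from the count of neighbours.

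The genes most like Sdhd across the 29 mice, by Pearson's r of log2(TPM + 1) over 15553 genes, were Sgta (0.819), Dnajc5 (0.816), Arl15 (0.813), Otub1 (0.789) and Fbxl18 (0.781). SGTA and DNAJC5 are co-chaperones, ARL15 is a small GTPase, OTUB1 a deubiquitinase and FBXL18 an F-box protein. Sdhb ranked 16th (r = 0.754), Sdha 325th (0.600), Sdhaf2 4627th (0.255), Sdhc 4763rd (0.248) and Sdhaf1 9315th (0.037). These points share the low values of the old hAβ-KI mice, and when the group means were subtracted other genes led: Pank4 (0.843), Map2k3 (0.757), Psma3 (0.726), Ermard (0.715) and Clec11a (0.702). Within groups Sdha (0.563, rank 163) was then closer to Sdhd than Sdhb was (0.497, rank 471). Sdhc stayed far down (0.181, rank 6552). Subtracting the group means leaves the spread of Sdhd within the old hAβ-KI mice. Its coefficient of variation there was 13.05%, against 5.30 to 6.71% in the other groups. The weight of these mice in the values within groups was not tested.

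Among the members themselves, Sdhb and Sdhd had the highest r over 29 mice (0.754, against 0.722 for Sdha and Sdhb), and Sdha and Sdhb the highest within groups (0.683, against 0.497 for Sdhb and Sdhd). Sdha and Sdhb each also varied with Sdhaf2 (r = 0.532 and 0.523 over 29 mice). The pair of membrane anchors, Sdhc and Sdhd, had r = 0.248 over 29 mice and 0.181 within groups. All these values share the library, so that a scaling common to a library enters each of them.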

How the data were processed

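Total hippocampal RNA was converted to cDNA by Smart-seq2, and Nextera libraries were made from it. Alignment to GRCm38 by the authors used STAR 2.5.1b, and RSEM 1.2.22 then gave expression estimates on a GENCODE annotation. The deposited values are TPM of protein-coding and long non-coding genes, which hold no read counts, so that depth is unknown and no counting error can be given. The authors' own comparisons used edgeR, and its input was not analysed here. Groups were taken from the sample labels, 1 library per mouse, and no 2 mice had identical values.

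From the TPM, log2(TPM + 1) was fitted for 15554 genes (2 or more mice with 1 TPM or above) with limma 3.58.1 in R 4.3.3, with 1 mean per group and eBayes with a trend, for 5 contrasts. A gene was called at p under 0.05 and a Benjamini-Hochberg false discovery rate under 0.1 over all genes tested. On simulated data with 200 genes shifted by 1 on the log2 scale, at least 93.5% were recovered in 5 runs. The simulated noise was independent between mice and between genes. The differences of the members were all smaller than that shift, and recovery at their size was not tried. Fold changes on this scale understate those of low genes. The main fit in limma takes mice as independent, although some share a number in their sample names. Each p-value sets a difference of group means against a spread between mice that is pooled over all groups and moderated by eBayes.

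The members and the lists were chosen with earlier results of these data known. From the lists, 1 gene is not reported here. Named were the 6 members, up to 3 genes with the largest change among those called in each list and comparison (others by name where few), the 5 genes most correlated with Sdhd over all mice and within groups, and the genes within 100 kb of Sdhd. Positions were taken from GENCODE M21 and promoter windows from RefSeq. Marker lists for neurons, hippocampal neurons, astrocytes, microglia, oligodendrocytes, endothelium, choroid plexus and blood were summed per mouse. Alternatives were a pseudocount of 0.1, no filter, quantile normalization, a filter on the mean (1 TPM or above), rescaling to nuclear protein-coding genes, a model of the groups compared alone, sex as a covariate, no trend, correlated mice with a shared name number, and each mouse left out in turn. Leaving out both old hAβ-KI mice with the lowest Sdhd, and the lists without replicate 2 of that group, were added after seeing the data. Other steps used Python 3.11.15 with numpy 2.4.6, pandas 2.3.3 and matplotlib 3.10.9.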

Additional observations from a re-analysis of the deposited data

Results flagged for a closer look

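In 28 sets of values (6 genes and the log2 ratio of Sdhd to the other subunits, each in 4 groups), 3 held a mouse that stood apart from the rest of its group by more than Dixon's 95% critical value. About 1 in 20 sets is marked so by chance. Sdhb in replicate 5 of the old hAβ-KI mice was at 308.75 TPM, with the next mouse at 328.62 TPM; the same mouse had the lowest Sdhd but one. Sdha in replicate 6 of the old hAβ-KI mice was at 303.51 TPM, with the next at 280.91 TPM. Sdha in replicate 6 of the old WT mice was at 328.57 TPM, with the next at 298.7 TPM. The low Sdhd of replicates 4 and 5 of the old hAβ-KI mice was not marked, since the lower of the 2 has the other beside it.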

How the results depend on the processing

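The number of the 6 genes called stayed at 0 for genotype at 2 months, age in WT mice and the interaction, and at 1 for genotype at 22 months, under every alternative run. For age in hAβ-KI mice it was 2 and became 1 after quantile normalization and 1 without the 2 old hAβ-KI mice with the lowest Sdhd, because Sdhb was no longer called; with single mice left out it stayed at 2. Signs turned for small differences that were not called. After quantile normalization the differences were 0.015 for Sdhb with genotype at 2 months, 0.028 (Sdha), 0.029 (Sdhb) and 0.0067 (Sdhc) with age in WT mice, and 0.024 for Sdhc with age in hAβ-KI mice. After rescaling to nuclear protein-coding genes they were 0.017 for Sdhb with genotype at 2 months, and 0.0049 (Sdha) and 0.0013 (Sdhb) with age in WT mice. The sign of Sdhd turned as well after quantile normalization, to 0.0021 for genotype at 2 months and 0.040 for age in WT mice. With each mouse left out in turn, genotype at 2 months gave -0.0047 to 0.047 for Sdha, -0.029 to 0.0095 for Sdhb and -0.034 to 0.028 for Sdhaf1, age in WT gave -0.019 to 0.040 for Sdhaf1, and age in hAβ-KI gave -0.037 to 0.0021 for Sdhc. The cause was not tested. Sdhd at 22 months stayed between -0.42 and -0.27 between genotypes in all alternatives. The genotype difference of its log2 ratio at 22 months was tried only with Sdhc as the reference and with single mice left out. There it lay between -0.36 and -0.25. It was not computed without both of the old hAβ-KI mice with the lowest Sdhd. Quantile normalization also moved the number of genes called lower from 4 to 2 for pyruvate entry with age in WT mice and from 2 to 1 for ubiquinone synthesis with age in hAβ-KI mice, took TCA cycle genes called lower from 3 to 2 in WT and from 6 to 5 in hAβ-KI mice, and called 1 gene higher and 1 lower for iron-sulfur cluster assembly. Without replicate 2 of the old hAβ-KI mice, genes called lower with age in hAβ-KI mice were 4 of the TCA cycle, 2 of pyruvate entry and 0 of ubiquinone synthesis. No paired analysis was possible because the groups hold different mice and share no replicate numbers in the labels. TPM carry no depth, so counting error could not be weighed, and the 6 old hAβ-KI mice limit the precision of each comparison that uses them.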
